A study of Mus musculus with 39 samples.

Results

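The 32 genes described here encode the enzymes that carry pyruvate carbon through the mitochondrial matrix: the pyruvate carrier, the pyruvate dehydrogenase complex with its kinases and phosphatase, the tricarboxylic acid (TCA) cycle, complex II, and the transaminases and carriers of the malate-aspartate shuttle. They were taken as a list of gene symbols and matched to the Ensembl identifiers of the count tables, which hold 46078 genes. All 32 were among the 14689 genes with enough reads to test. The libraries came from gastrocnemius, a calf muscle, of C57BL/6 mice injected at 8 weeks of age in the hind flank with Lewis lung carcinoma (LLC) cells, a mouse tumour line, or with phosphate-buffered saline (PBS). Tumours had grown for 7, 14, 21 or 28 days, called weeks 1 to 4. PBS, week 1 and week 4 had 8 libraries each and weeks 2 and 3 had 7 each; 1 further week 3 sample was not analysed here. No source used here gives the age at which PBS mice were killed, so tumour time and age cannot be told apart in comparisons with PBS. The labels do not say how each library relates to an animal, so p-values measure the spread between these libraries.

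Pyruvate made by glycolysis enters mitochondria through a carrier of MPC1 and MPC2 and is turned into acetyl-CoA by pyruvate dehydrogenase, which kinases switch off and phosphatases switch on. The TCA cycle oxidises that acetyl-CoA and passes electrons to the respiratory chain, in part directly through complex II, which is both the succinate dehydrogenase of the cycle and a respiratory enzyme. Skeletal muscle, and its oxidative fibres most of all, relies on this route during sustained work.

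Reads assigned to genes ranged from 13356756 to 24801565 per library. The deposited count tables carry a sequencing lane number, and groups were spread unevenly over lanes. The 8 PBS libraries were in lanes 5 and 6, and the 8 week 4 libraries were in lanes 2 (5 libraries) and 4 (3 libraries). No lane held both groups, so lane and week 4 cannot be told apart in a direct comparison with PBS. Weeks 1 to 3 together had 5 libraries in lane 2, 7 in lane 4 and 10 in lanes 5 and 6, which allowed the lanes to be compared. Week 3 replicate 1 stood apart, with the lowest mean level of the 32 genes outside week 4 (-0.66 on the log2 scale against the PBS mean). Its skeletal muscle markers took 6.00% of all counts, the lowest share of any library. The lowest shares in PBS and week 4 were 11.8% and 10.0%.

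Most of the 32 genes were lower in week 4 than in PBS. With edgeR's quasi-likelihood test and an adjusted p threshold of 0.05, 18 of the 32 fell and 0 rose, where 14% of all tested genes fell and 15.2% rose. Of the members that were higher, 1 had an unadjusted p under 0.05; none passed in DESeq2, and 2 passed in limma voom (Ogdh and Pdk2). The median log2 fold change was -0.37, against -0.02 over all genes. The called members fell by 1.22-fold (Dld) to 1.88-fold (Mpc2), and 0 of the 32 had every week 4 library below every PBS library, a pattern held by 0.531% of all tested genes. When a term for lane 2 was added, 3 of the 18 were still called, against 2.12% of all genes lower: Dlat, Pdp1 and Idh3a. With a term for every lane 0 members were called (0.0545% of all genes lower; 7 members at an unadjusted p under 0.05), and without the lane 2 libraries 0 again (0.112%; 1 member). These lane fits were run with edgeR alone.

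**Figure D1:**
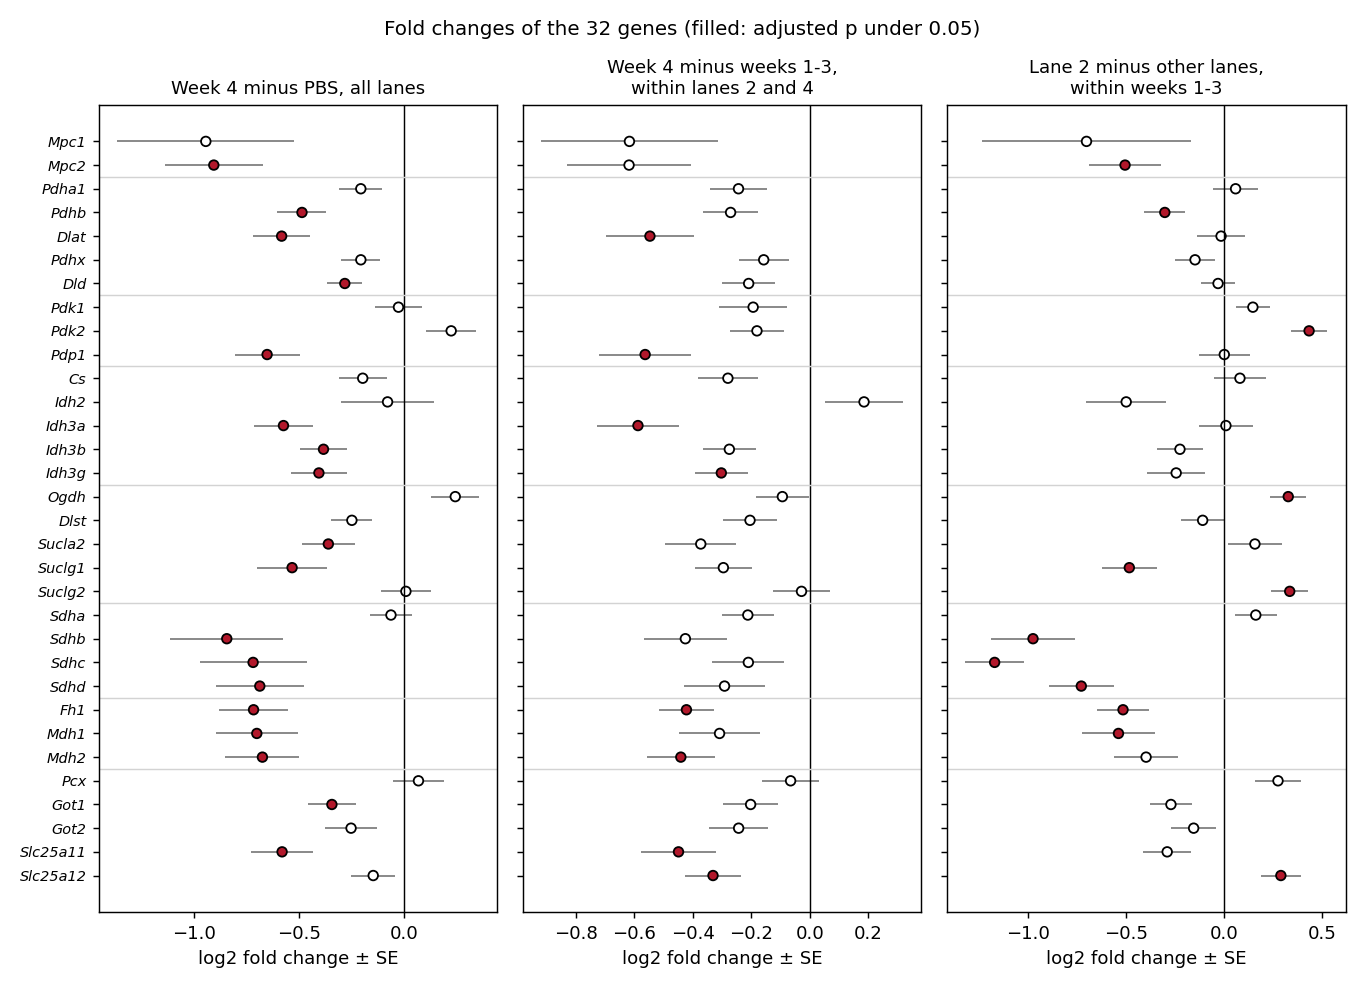
Log2 fold change with its standard error for each of the 32 genes, in week 4 against PBS (left), in week 4 against weeks 1 to 3 within lanes 2 and 4 (middle) and in lane 2 against the other lanes within weeks 1 to 3 (right); filled points have an adjusted p under 0.05. Filled points on the left number 18, in the middle 8, and on the right 12, and each panel has its own scale.

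No member was called in weeks 1 to 3. edgeR called 0 of the 32 at each of these weeks, where 0.0613% of all genes were called at week 1, 0% at week 2 and 0.313% at week 3. DESeq2 and limma voom also called 0. Unadjusted p under 0.05 was found for 2 members at week 1, 1 at week 2 and 0 at week 3. The median log2 fold change of the members was 0.02 at week 1, 0.05 at week 2 and -0.13 at week 3.

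The first step, pyruvate entry, was lower at week 4 in 1 of its 2 genes. Mpc2, a subunit of the mitochondrial pyruvate carrier, ran from 101.5 to 179 CPM (a gene's reads scaled to the library's total, with edgeR's TMM factors) in PBS with a median of 117, and from 30.3 to 120.5 with a median of 51.9 in week 4. The 2 ranges overlapped, since the 3 lane 4 libraries of week 4 lay between 80.1 and 120.5 and the 5 lane 2 libraries between 30.3 and 56.4. Its log2 fold change was -0.91 ± 0.23 (SE), adjusted p = 0.005. In weeks 1 to 3, its medians were 119, 127 and 98.3 CPM. Its partner Mpc1 had a log2 fold change of -0.95 ± 0.42, which did not pass (adjusted p = 0.088), and its levels were wide: 17.1 to 109 CPM in PBS with a median of 41.8, and 17.2 to 41.9 with a median of 28.1 in week 4. The week 1, 2 and 3 medians of Mpc1 were 38.5, 51.2 and 59.6 CPM. Mpc1 has a named pseudogene, as has Got2, and Mpc1, Pdha1, Idh3b, Mdh1, Got2 and Slc25a11 share exon sequence with a gene on the other strand, so their counts are less certain.

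Among the 5 core genes of pyruvate dehydrogenase, 3 fell. Dlat, the E2 acetyltransferase at the core of the complex, ran from 139.9 to 194 CPM in PBS (median 154) and from 63.4 to 161 in week 4 (median 99.1). Only the highest week 4 library, replicate 8 in lane 4, exceeded the PBS median, and the ranges overlapped. The fold change was -0.58 ± 0.13 on the log2 scale (adjusted p = 0.0022). Dlat medians in weeks 1 to 3 were 177, 168 and 138 CPM. Pdhb, the E1 beta subunit, fell by 0.49 ± 0.12 on the log2 scale (adjusted p = 0.0029), from 154 to 224 CPM in PBS (median 172) to 102 to 168 in week 4 (median 109), with week 1, 2 and 3 medians of 169.9, 180 and 143 CPM. Dld, the shared E3 subunit, fell by 0.28 (adjusted p = 0.011). Pdha1, the E1 alpha subunit, and Pdhx, the E3 binding protein, had log2 fold changes of -0.21 each and did not pass (adjusted p = 0.12 and 0.09).

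Of the regulators of the complex, Pdp1 was called lower at week 4 against PBS and the kinases Pdk1 and Pdk2 were not. Differences between these genes were not tested. Pdp1, the catalytic phosphatase that reactivates pyruvate dehydrogenase, fell by 0.65 ± 0.16 on the log2 scale (adjusted p = 0.0028). Its PBS libraries ran from 72.1 to 119 CPM (median 102) and its week 4 libraries from 25.5 to 85 (median 64), with medians of 101.7, 94.9 and 81.9 CPM in weeks 1 to 3. The lowest week 4 library was replicate 5, in lane 2, and the groups overlapped. Pdk2, a kinase that inactivates the complex, had 216 to 379 CPM in PBS (median 301) and 309.8 to 422 in week 4 (median 349.8), a difference of 0.23 ± 0.12 that did not pass (adjusted p = 0.15); its medians in weeks 1 to 3 were 350.4, 367 and 355 CPM. Pdk1, another kinase, had -0.03 (adjusted p = 0.88). Within lanes 2 and 4, with lane held, Pdp1, Pdk2 and Pdk1 had -0.56, -0.18 and -0.19 against weeks 1 to 3. Only Pdp1 passed there in edgeR. Pdk2 was 0.43 higher in lane 2 within weeks 1 to 3 (adjusted p = 0.0015), and had 0.01 at week 4 against PBS with a lane 2 term.

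In the steps from citrate to oxoglutarate, the 3 subunits of the NAD-dependent isocitrate dehydrogenase were called lower at week 4 against PBS. Citrate synthase and the NADP-dependent enzyme were not called, and differences between these genes were not tested. Idh3a, the catalytic subunit, ran from 405 to 611 CPM in PBS (median 527) and from 211 to 499 in week 4 (median 331). Overlap came from lane 4, where 2 of its 3 libraries were at 483 and 499, and the third, replicate 6, at 289. The log2 fold change was -0.57 ± 0.14 (adjusted p = 0.0031), and weeks 1 to 3 had medians of 596, 559.5 and 449 CPM. Idh3b, a regulatory subunit, fell by 0.38 (adjusted p = 0.011), from a median of 391 CPM in PBS (308 to 504) to 291 in week 4 (221 to 370). Its medians in weeks 1 to 3 were 382, 424 and 341 CPM. Idh3g, the other regulatory subunit, fell by 0.41 (adjusted p = 0.022), with a median of 252 CPM in PBS (201 to 321) and 188 in week 4 (150.6 to 246), and 236, 279 and 234 CPM in weeks 1 to 3. Cs (citrate synthase) had -0.20 (adjusted p = 0.2) and Idh2 -0.08 (adjusted p = 0.82). Within lanes 2 and 4, against weeks 1 to 3, edgeR gave Cs -0.28 (adjusted p = 0.073), Idh3b -0.28 (adjusted p = 0.053) and Idh2 0.18. Cs passed there with DESeq2 (adjusted p = 0.042) and limma voom (adjusted p = 0.016). Against weeks 1 and 2 over all lanes, edgeR called Cs lower at week 4 (adjusted p = 0.037 and 0.042).

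Of the 5 genes from oxoglutarate to succinate, 2 were called lower at week 4 against PBS, Suclg1 and Sucla2 of succinyl-CoA ligase. Suclg1, the alpha subunit, had 194 to 306 CPM in PBS (median 241) and 108 to 256 in week 4 (median 145), with 256, 265 and 225 CPM as medians of weeks 1 to 3. It fell by 0.53 ± 0.17 on the log2 scale (adjusted p = 0.015). Its 3 lane 4 libraries of week 4 lay between 198 and 256 CPM, inside the PBS range. Sucla2, the ATP-forming beta subunit, fell by 0.36 ± 0.13 (adjusted p = 0.031), from 401 to 567 CPM in PBS (median 453) to 285 to 470.4 in week 4 (median 342), and had medians of 484, 475 and 432 CPM in weeks 1 to 3. Suclg2, the GTP-forming beta subunit, had 0.01 (adjusted p = 0.96). Ogdh, the E1 of oxoglutarate dehydrogenase, was 0.25 higher and did not pass (adjusted p = 0.1), and Dlst, its E2, had -0.25 (adjusted p = 0.052). In edgeR with a lane 2 term, Suclg1 had -0.21 (adjusted p = 0.33) and Sucla2 -0.37 (adjusted p = 0.1). Within lanes 2 and 4, against weeks 1 to 3, they had -0.30 (adjusted p = 0.054) and -0.37 (adjusted p = 0.051) in edgeR. Both passed there with DESeq2 and limma voom. Within weeks 1 to 3, Suclg1 was 0.48 lower in lane 2 (adjusted p = 0.014).

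Of the 4 complex II genes, 3 fell; differences between subunits were not tested. Sdha, the flavoprotein that oxidises succinate, had -0.06 (adjusted p = 0.68), while the iron-sulphur subunit Sdhb and both membrane anchors, Sdhc and Sdhd, fell. Sdhb ran from 258 to 449.5 CPM in PBS (median 338) and from 82.7 to 345 in week 4 (median 134), a log2 difference of -0.85 ± 0.27 (adjusted p = 0.018). Its 5 lane 2 libraries of week 4 lay between 82.7 and 144 CPM, and its 3 lane 4 libraries between 271 and 345, inside the PBS range. Sdhb medians in weeks 1 to 3 were 307, 358 and 284 CPM. Sdhd had 186 to 262 CPM in PBS (median 211) and 66.1 to 231 in week 4 (median 117), a log2 difference of -0.69 ± 0.21 (adjusted p = 0.014), and medians of 206, 232 and 174 in weeks 1 to 3. Sdhc fell by 0.72 ± 0.26 (adjusted p = 0.032). The same 3 genes were also lower in lane 2 within weeks 1 to 3, by 0.73 to 1.17 on the log2 scale, where Sdha had 0.16. With lane held, within lanes 2 and 4, the week 4 differences of Sdha and Sdhc were both -0.21.

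All 3 genes from fumarate to oxaloacetate were called lower at week 4 against PBS. Fh1, fumarase, had 169.8 to 259.8 CPM in PBS (median 208) and 91.2 to 193 in week 4 (median 103), a log2 difference of -0.72 ± 0.17 (adjusted p = 0.0022). Its lane 2 libraries of week 4 fell within 91.2 to 104 CPM, and its lane 4 libraries within 167 to 193. Mdh2, the mitochondrial malate dehydrogenase, fell by 0.68 ± 0.18 (adjusted p = 0.0052), with 485 to 869.8 CPM in PBS (median 636) and 265 to 611 in week 4 (median 344). Medians in weeks 1 to 3 were 198, 216 and 182 CPM for Fh1 and 627, 668 and 524 CPM for Mdh2. Mdh1, the cytosolic malate dehydrogenase, fell by 0.70 (adjusted p = 0.0083). In edgeR with a lane 2 term, Fh1, Mdh2 and Mdh1 had -0.38, -0.39 and -0.36. None passed there (adjusted p = 0.059, 0.12 and 0.2). Within lanes 2 and 4, against weeks 1 to 3, Fh1 and Mdh2 passed in edgeR and Mdh1 did not (-0.31, adjusted p = 0.14).

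Of the 5 anaplerotic and shuttle genes, 2 fell. Slc25a11, the oxoglutarate-malate carrier, had 155 to 243 CPM in PBS (median 174) and 65.4 to 179 in week 4 (median 107), a log2 difference of -0.58 ± 0.15 (adjusted p = 0.0041), and medians of 184, 195 and 155 in weeks 1 to 3. Got1, the cytosolic aspartate aminotransferase, fell by 0.34 ± 0.12 (adjusted p = 0.024), from 240 to 438 CPM in PBS (median 323) to 219.7 to 340.1 in week 4 (median 254), with medians of 321, 335 and 319 in weeks 1 to 3. Slc25a12, the aspartate-glutamate carrier, had 315 to 452 CPM in PBS (median 393) and 284 to 403 in week 4 (median 366), a difference of -0.15 that did not pass (adjusted p = 0.29); its medians in weeks 1 to 3 were 435, 435 and 358 CPM. Got2, the mitochondrial aminotransferase, had -0.25 (adjusted p = 0.12) and Pcx, pyruvate carboxylase, 0.07 (adjusted p = 0.7).

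In these bulk libraries, fewer muscle nuclei or fibres and less RNA per fibre cannot be told apart. Per kilobase of median transcript length, the highest PBS level among the 32 was Mdh2 (993 ± 167 CPM per kb, SD, n = 8), followed by Sdha (429.6 ± 43.6), and the lowest Pdk1 (13 ± 1.24). Median transcript length is a simplification where a gene has several isoforms. It was 648 bases for Mdh2, the shortest of the 32, and 1811 for Sdha, so the first rank of Mdh2 depends on that length. Before length scaling, the PBS means were 643 CPM for Mdh2 and 778 for Sdha.

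Against the earlier tumour groups, week 4 was lower in 17 of 32 members compared with week 1, where 9.62% of all genes fell. Compared with week 2 it was lower in 22, where 10% fell. Both comparisons pooled the lanes. Lane 2 supplied 5 of 8 week 4 libraries, 3 of 8 from week 1 and 1 of 7 from week 2. With a lane 2 term, 17 were lower than week 1 and 9 lower than week 2. A term for every lane left 12 and 7, and dropping the lane 2 libraries left 0 for each. The pooled counts therefore cannot be read as tumour time alone. Against week 3, edgeR called 0 lower, where 1.16% of all genes fell. The unadjusted p of 16 members was under 0.05 there, and limma voom called 19 and DESeq2 called 3. The shares of all genes under these 3 rules are not given here. Leaving out week 3 replicate 1 gave 8, week 4 replicate 7 gave 8 and week 4 replicate 8 gave 10; leaving out week 3 replicate 8 gave 2, and week 4 replicate 6, week 3 replicate 6 or week 2 replicate 6 gave 1. A test for any difference among the 5 groups called 12 members, against 21.9% of all genes, and 6 without week 4 replicate 5, 7 without week 4 replicate 4 and 19 without week 4 replicate 8. The count for week 1 was 11 without week 4 replicate 5 or week 1 replicate 3. For week 2 it was 11 without week 4 replicate 5, and 14 without week 4 replicate 3 or 4 or week 2 replicate 1, 2, 6 or 7. Shares of all genes in these leave-one-out fits, and in the lane fits of this paragraph, are not given here. Changes in these counts therefore cannot be read as particular to the members.

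**Figure D2:**
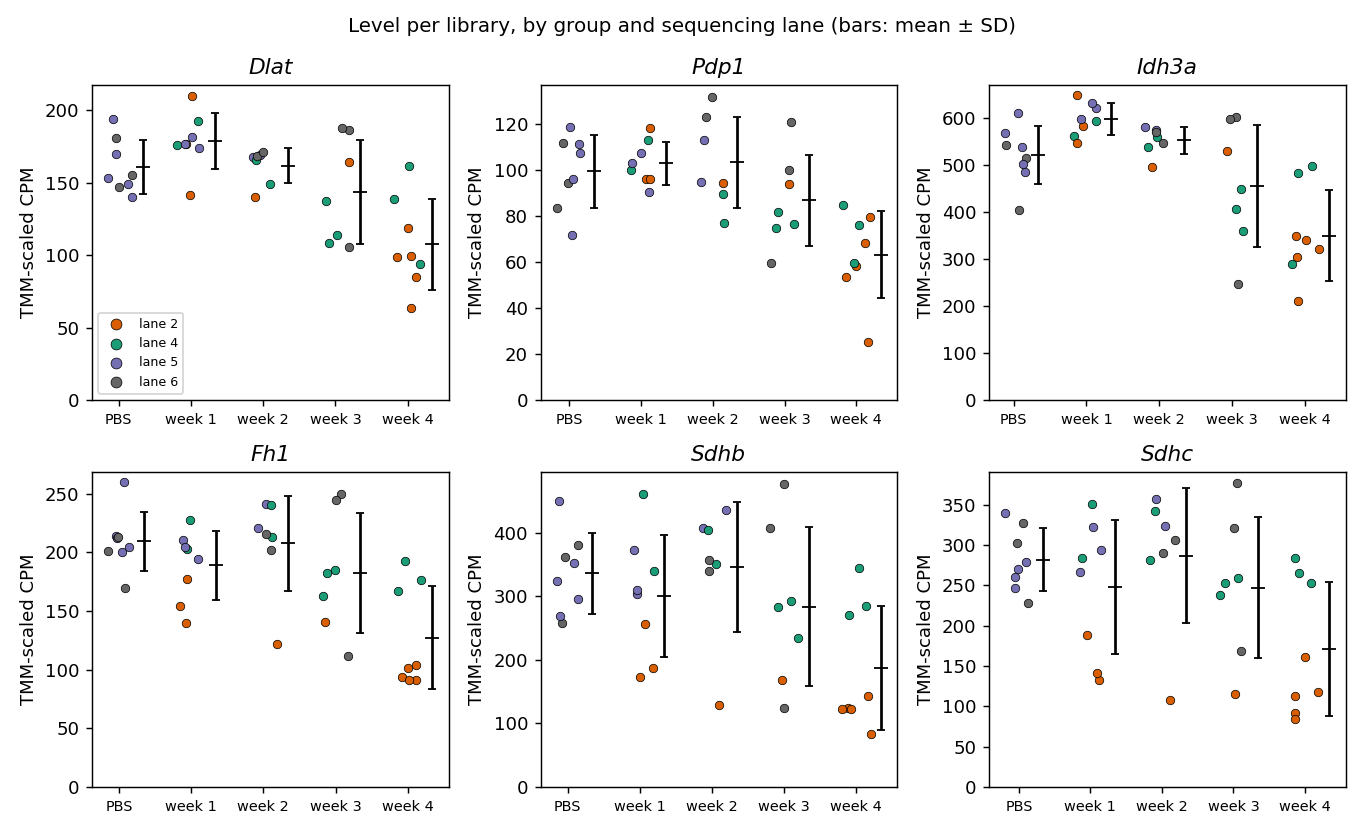
TMM-scaled CPM of 6 of the genes in every library (points coloured by sequencing lane) by group, with the mean ± SD beside each group. Sdhb and Sdhc have their lowest points in lane 2 in weeks 1, 2 and 4 (and week 3 for Sdhc), whereas Idh3a lane 2 points of weeks 1 to 3 lie between 496 and 649 and those of week 4 between 211 and 349.

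Lane 2 itself was associated with lower counts of part of the list. Within weeks 1 to 3, comparing the 5 lane 2 libraries with the 17 in other lanes, 8 members were lower and 4 higher, where 12.9% of all genes were lower and 10.9% higher. Sdhc was lower by 1.17 ± 0.15 on the log2 scale (adjusted p = 5.7e-06), Sdhb by 0.97 (adjusted p = 0.0021) and Sdhd by 0.73 (adjusted p = 0.0026); Fh1, Mdh1, Mpc2, Suclg1 and Pdhb were the other 5. The 4 higher were Pdk2 (0.43), Suclg2, Ogdh and Slc25a12. Idh3a, Dlat and Pdp1 had lane differences of 0.01 ± 0.14, -0.01 ± 0.12 and 0.00 ± 0.13, with adjusted p of 0.97, 0.95 and 0.99. All 8 lane 2 members were among the 18 called at week 4 against PBS. The number lower was 3 without week 2 replicate 3, 5 without week 1 replicate 5 or 8, and 14 without week 3 replicate 1. Shares of all genes in these 3 kinds of fit are not given here. Across the 32 genes, Spearman's rho between this lane difference and median transcript length was 0.76, and 0.46 across 12680 genes, as a description; for week 4 against PBS it was 0.63 across the 32 and 0.32 across 12921 genes, and for week 4 within lanes 2 and 4 it was 0.33 and 0.08. The 8 lower members had 815 to 1589 bases and the 4 higher 2246 to 6351.

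**Figure D3:**
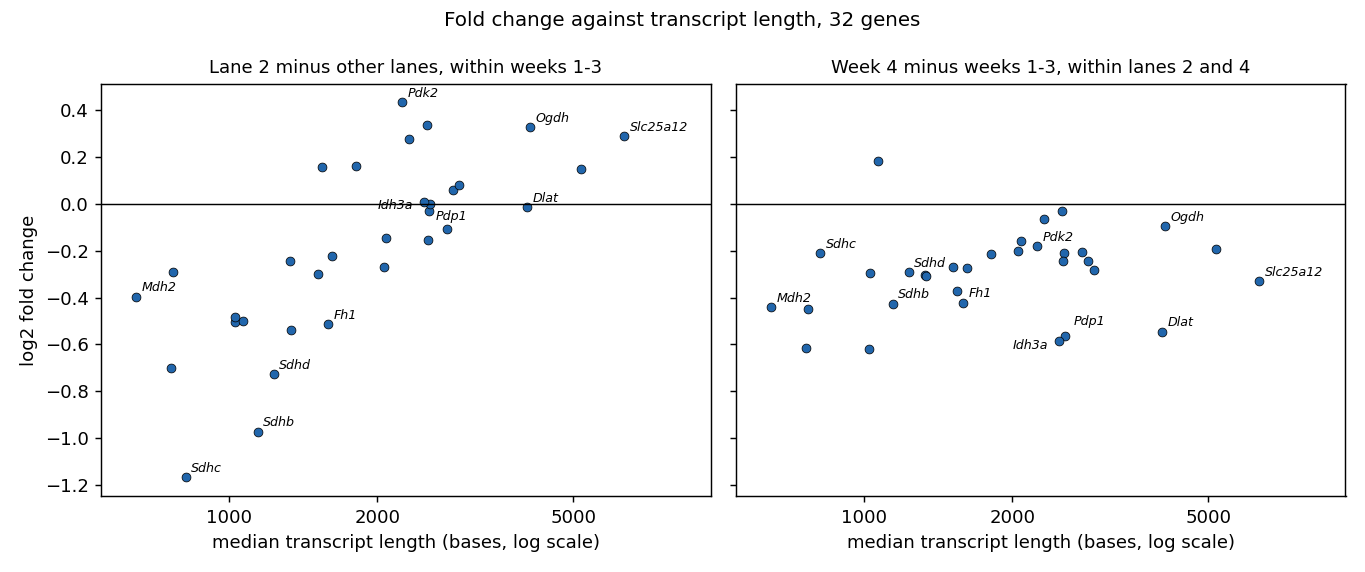
Log2 fold change of the 32 genes against median transcript length (log axis), for lane 2 against other lanes within weeks 1 to 3 (left) and week 4 against weeks 1 to 3 within lanes 2 and 4 (right). Short transcripts lie low on the left, and Idh3a, Dlat and Pdp1 lie near 0 there and at -0.59, -0.55 and -0.56 on the right.

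Within lanes 2 and 4, week 4 (8 libraries) could be set against weeks 1 to 3 (12 libraries) with the lane held in the model. Of the 32 members, 8 were lower and 0 higher (0 higher at an unadjusted p under 0.05, and 0 by DESeq2 and limma voom), where 4.41% of all genes were lower and 5.96% higher. The median was -0.28. Idh3a fell by 0.59 ± 0.14 on the log2 scale (adjusted p = 0.018), Fh1 by 0.42 ± 0.10 (adjusted p = 0.014), Mdh2 by 0.44 (adjusted p = 0.027), Dlat by 0.55 (adjusted p = 0.031) and Pdp1 by 0.56 (adjusted p = 0.032). Slc25a11 (-0.45), Slc25a12 (-0.33) and Idh3g (-0.30) also fell. DESeq2 called 15 lower and limma voom 18, and their shares of all genes are not given here. No complex II gene passed in edgeR: Sdhb had -0.43 (adjusted p = 0.055), Sdhd -0.29, Sdhc -0.21 and Sdha -0.21. Sdhb passed with DESeq2 and with limma voom (adjusted p = 0.033 in each), and Sdha with limma voom alone (adjusted p = 0.029). Sdhc and Sdhd passed with neither. The count of 8 was 1 without week 4 replicate 6, 2 without week 4 replicate 4 or week 1 replicate 8, 3 without week 4 replicate 3, week 1 replicate 5 or week 3 replicate 8, 4 without week 4 replicate 5 or week 1 replicate 4, 5 without week 2 replicate 3, 13 without week 3 replicate 6, and 15 without week 4 replicate 7 or 8 or week 3 replicate 5. Fh1 passed in 20 of 20 such fits and Idh3a in 19. Shares of all genes in these fits are not given here, so the changes in count cannot be read as particular to the members.

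The lanes were also compared one by one. In lane 2 the libraries of weeks 1 to 3 were 3 of week 1, 1 of week 2 and 1 of week 3. In lane 4 they were 2, 2 and 3. Lane and the mix of earlier weeks therefore cannot be told apart where lanes 2 and 4 are compared. In lane 2 alone, week 4 (5 libraries) was lower than weeks 1 to 3 (5 libraries) in 15 members, against 8.42% of all genes, with a median of -0.38. In 16 members, against 7.44% of all genes, every lane 2 library of week 4 lay below every lane 2 library of weeks 1 to 3. Idh3a was one of them, at 211 to 349 CPM against 496 to 649. In lane 4 alone (3 against 7 libraries), edgeR called 0 members and 0% of all genes, 0 members had an unadjusted p under 0.05, and the median was -0.13, with 30 of 32 negative; DESeq2 and limma voom were not run on lane 4 alone. A test of the difference between the lanes, run with edgeR, called 0 members and 0% of genes. In it 9 members had an unadjusted p under 0.05, and the share of all genes under that rule is not given here. This test was added after the data were examined.

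**Figure D4:**
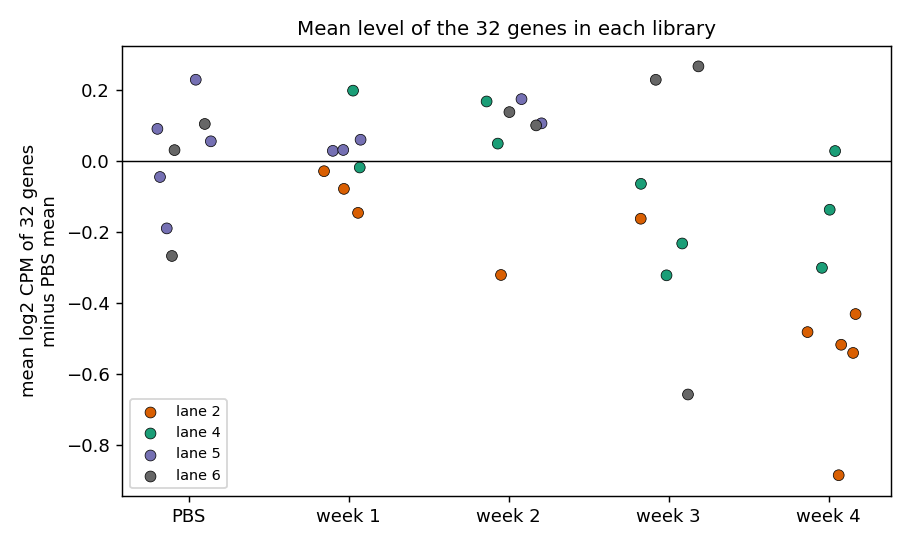
Mean log2 CPM of the 32 genes in each library minus the PBS mean, by group, coloured by lane. Week 4 lane 2 libraries lie between -0.89 and -0.43, week 4 lane 4 libraries between -0.30 and 0.03, and lane 2 libraries of weeks 1 to 3 between -0.32 and -0.03.

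In lanes 5 and 6, which held PBS and part of weeks 1 to 3, edgeR, DESeq2 and limma voom each called 0 members between tumour and PBS (0% of all genes in edgeR), with 1 member at an unadjusted p under 0.05 in edgeR and a median of 0.07.

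Other genes of this metabolism that are not members were examined as a list. Of 46, 15 fell and 3 rose at week 4 against PBS, where 14% of all tested genes fell and 15.2% rose. Those that fell included Glud1, glutamate dehydrogenase (-0.29, adjusted p = 0.0018), the complex II assembly factors Sdhaf1, Sdhaf2, Sdhaf3 and Sdhaf4, Oxct1, which activates ketone bodies (-0.78), and Esrra, an orphan nuclear receptor that regulates mitochondrial genes (-0.72, adjusted p = 0.0096). Pdk4, the pyruvate dehydrogenase kinase induced by fasting, rose by 1.18 (adjusted p = 0.039), but its week 4 libraries spanned 174 to 2058 CPM and PBS 202 to 672. Acss1, which makes mitochondrial acetyl-CoA from acetate, rose by 0.72 (adjusted p = 0.0016). Gabpa, an ETS transcription factor, rose by 0.42 (adjusted p = 0.0091). In edgeR with a lane 2 term, Acss1 (0.83) and Glud1 (-0.23) still passed. Gabpa (0.13, adjusted p = 0.42), Pdk4 (1.10), Esrra (-0.46), Oxct1 (-0.65) and Sdhaf1 to Sdhaf4 did not. Within weeks 1 to 3, Gabpa was 0.36 higher in lane 2 (adjusted p = 0.0033). Sdhaf1, Sdhaf2 and Sdhaf4 were lower there by 0.64, 0.25 and 0.97, and each passed. Within lanes 2 and 4, 6 of the 46 fell, Glud1, Esrra, Gpt, Slc16a3, Idh1 and Sdhaf3, and Acss1 rose. There, 4.41% of all genes were lower and 5.96% higher. The nuclear genes of complex I fell in 32 of 36 at week 4 against PBS (median -0.68), and in 30 of 36 with lane 2 within weeks 1 to 3 (median -0.69). Those of complexes III, IV and ATP synthase fell in 32 of 35 (median -0.83) and in 29 of 35 with lane 2. Of 13 mitochondrially encoded protein genes 4 fell at week 4, and of 17 tested glycolysis genes 6 fell and 2 rose. Of 78 cytosolic ribosomal protein genes 5 fell at week 4 while 67 were lower in lane 2. Of all tested genes, 14% fell and 15.2% rose at week 4 against PBS. In lane 2 within weeks 1 to 3, 12.9% of all genes were lower. Mean log2 levels of the mitochondrially encoded genes were widely spread within groups. Set against the PBS mean, they ran from -3.08 to 0.86 in PBS and from -4.49 to 0.23 in week 4.

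Promoter windows of 4 of the genes are shown because they span those called in the lane 2 term fit (Dlat), in every leave-one-out fit within lanes 2 and 4 (Fh1) and those holding a searched motif (Idh3g and Sdhd); they were picked after these values were seen. Each is the 250 bases before a RefSeq start on GRCm38.p6, and capitals mark the ETS core CCGGAAG or its reverse complement.
Dlat, chr9:50659781-50660030, minus strand: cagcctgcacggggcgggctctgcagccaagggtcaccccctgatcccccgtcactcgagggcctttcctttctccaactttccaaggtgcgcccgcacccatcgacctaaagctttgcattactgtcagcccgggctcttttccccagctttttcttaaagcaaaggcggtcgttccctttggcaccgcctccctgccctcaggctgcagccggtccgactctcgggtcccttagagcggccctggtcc
Fh1, chr1:175625636-175625885, minus strand: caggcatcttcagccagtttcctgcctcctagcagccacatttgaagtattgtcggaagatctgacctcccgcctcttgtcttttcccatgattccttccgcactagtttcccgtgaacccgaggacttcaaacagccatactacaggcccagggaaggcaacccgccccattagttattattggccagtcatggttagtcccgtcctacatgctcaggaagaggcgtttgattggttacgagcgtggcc
Idh3g, chrX:73786898-73787147, minus strand: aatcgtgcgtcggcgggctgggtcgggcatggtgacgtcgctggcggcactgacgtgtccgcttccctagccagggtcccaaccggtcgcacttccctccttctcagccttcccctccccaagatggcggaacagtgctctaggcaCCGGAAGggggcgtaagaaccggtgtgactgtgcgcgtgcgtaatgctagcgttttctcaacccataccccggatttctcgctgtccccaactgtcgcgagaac
Sdhd, chr9:50603850-50604099, minus strand: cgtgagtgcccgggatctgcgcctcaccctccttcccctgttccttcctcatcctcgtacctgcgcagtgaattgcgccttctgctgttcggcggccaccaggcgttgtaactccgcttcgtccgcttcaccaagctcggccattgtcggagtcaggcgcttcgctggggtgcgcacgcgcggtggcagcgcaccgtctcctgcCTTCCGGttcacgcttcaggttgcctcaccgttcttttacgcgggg
RefSeq windows were found for 29 of the 32 members. On either strand, the ETS core CCGGAAG was in 3 of the 29 (Mpc1, Idh3g and Sdhd, 10.3%) and in 6.91% of 32851 promoter windows. The ERR element TNAAGGTCA was in 0 of the 29 (1.14% of all windows) and the NRF1 core GCGCATGCG in 0 (1.45%). These motifs do not overlap one another in the windows shown.

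Markers of other cells also differed at week 4 against PBS, where 15.2% of all tested genes rose and 14% fell. The summed level of 10 neutrophil markers was 60.4 to 269.7 CPM in week 4 and 2 to 15.8 in PBS, and all 8 with enough reads rose. The 7 erythroid markers summed to 729.7 to 3409 CPM against 231 to 1271, and 4 rose; the 5 endothelial markers to 242 to 421 against 209 to 289.9, and 3 rose; the 12 macrophage markers to 154 to 294 against 95.3 to 1150, and 2 rose. Within lanes 2 and 4, 8 of 8 neutrophil and 10 of 12 macrophage markers were higher in week 4 than in weeks 1 to 3, where 5.96% of all genes were higher. The 11 skeletal muscle markers took 10.0% to 16.5% of all counts in week 4 and 11.8% to 16.5% in PBS, and 3 fell; the 7 slow-fibre markers summed to 597 to 1321 and 436 to 2168 CPM. Adipocyte markers (6) summed to 9.92 to 145 and 40.9 to 118 CPM, fibro-adipogenic markers (4) to 436 to 859 and 460 to 972, and lymphocyte markers (5) to 0.512 to 1.52 and 0.413 to 2.28 CPM. No marker of these lists was at 0 in every library of either group. Their part in the members' levels was not tested.

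In the authors' deposited table of week 4 over PBS, 20 of the 32 members were listed, all lower, with log2 fold changes from -0.79 to -0.23; that table lists 4313 genes, 1924 of them lower. They included the 18 called here and, in addition, Mpc1 and Dlst. The authors' deposited tables for weeks 1, 2 and 3 over PBS are short, at 44, 100 and 22 genes, and listed 0 members.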

How the data were processed

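Gastrocnemius RNA was sequenced from TruSeq libraries, per the labels' protocols. The submitters' processing notes name FastQC, HISAT2, HTSeq and DESeq2 and the build GRCm38.p5; no version is named there. The authors deposited raw counts per gene for 38 of 39 samples, and tables of their own comparisons with a log2 fold change and p-value per gene, which are filtered lists. Counts per group are in the report. From the deposited counts, edgeR 4.0.16 (R 4.3.3) with TMM scaling and a quasi-likelihood test over 5 groups was fitted to 14689 genes passing a minimum count of 10, with Benjamini-Hochberg adjustment over all genes and a threshold of 0.05; log2 levels used a prior count of 2. DESeq2 1.42.0 and limma 3.58.1 voom, other filters and scalings, lane terms and leaving out each library were alternatives. Each share of all genes called is for edgeR's adjusted p. Counts at an unadjusted p, from DESeq2 or limma voom, or from fits leaving out a library have no such share here. Nor do counts with other filters, or lane-term counts against earlier tumour weeks. The fits were tested on simulated counts with no lane effect and a smaller spread between libraries than in these data. That test therefore does not bear on lane or on the calls at this spread. Every member was named, with values for the 2 of smallest p at week 4 in each role group and those called in a lane-adjusted fit. Members and lists were chosen with earlier results of these data known. Lane is the lane number of each count table; no source used here says whether equal numbers mean 1 sequencing run. Replicate numbers follow accession order and pair nothing. No 2 libraries of a group agreed within counting noise (chi-square per degree of freedom at least 13.1).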

Additional observations from a re-analysis of the deposited data

Results flagged for a closer look

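Among the 18 genes with levels given by group, 90 gene and group combinations were examined for a library far from the rest, and 15 were flagged; chance flags about 1 in 20. Of these, 13 were in 2 libraries. In week 2 replicate 3, the only week 2 library of lane 2, CPM was lowest for Mpc2 (58.7), Pdhb (120), Idh3b (319), Suclg1 (164), Sdhb (129), Sdhd (105), Fh1 (122), Mdh2 (433), Got1 (216) and Slc25a11 (126), each far below the other week 2 libraries. PBS replicate 5 was highest for Mpc2 (179), Pdhb (224) and Slc25a11 (243). Mpc1 in week 2 replicate 6 was at 198 CPM against 76 in the next library, and Got1 in week 4 replicate 8 at 340.1 against 273.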

How the results depend on the processing

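The 18 members lower at week 4 against PBS became 3 once lane 2 had a term of its own, 0 with a term for every lane and 0 without the lane 2 libraries; leaving out single libraries gave 14 to 20. The number higher was 2 with limma voom and 0 to 1 in leave-one-out fits (1 without PBS replicate 3). The median kept its sign in all alternatives, from -0.42 to -0.15. Members lower than week 1 numbered 17 with lane 2 as a term, 12 with a term for every lane and 0 without the lane 2 libraries. They numbered 11 with no low-count filter and 11 to 24 in leave-one-out fits. Members lower than week 2 numbered 12 with no low-count filter, 7 with a term for every lane, 9 with lane 2 as a term, none (0) when lane 2 libraries were dropped, and 11 to 26 in leave-one-out fits. Members lower than week 3 numbered 1 with a mean of at least 5 CPM, 3 with DESeq2, 19 with limma voom and 0 to 10 in leave-one-out fits. Any difference was called in 2 with a term for every lane, 0 without the lane 2 libraries, 25 with limma voom and 6 to 19 in leave-one-out fits. Within lanes 2 and 4, 5 were lower with no low-count filter, 15 with DESeq2, 18 with limma voom, 0 in lane 4 only, 15 in lane 2 only and 1 to 15 in leave-one-out fits. In lane 2 against the other lanes within weeks 1 to 3, 5 were lower with no low-count filter, 14 with limma voom and 3 to 14 in leave-one-out fits. The cause of these shifts was not tested. No paired analysis was possible because replicate numbers only follow accession order.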
